A study of Mus musculus with 308 samples.

Results

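The data described here are gene expression values of mouse spleen after repeated dosing with dimethyl fumarate (DMF), an ester of fumaric acid. The comparison set 8 spleen arrays from mice given DMF at 100 mg/kg against 8 spleen arrays from mice given the vehicle alone, and these 16 arrays are part of a series that covers 7 tissues. Arrays were taken by the tissue and group in their titles, which name replicates 9 to 16 for the DMF group and replicates 1 to 8 for the vehicle group. All mice were C57BL/6, were dosed once a day for 10 days, and gave tissue 12 hours after the final dose. The DMF group received DMF with no monoethyl fumarate (MEF), and the vehicle, 0.8% hydroxypropyl methylcellulose, was the same in both groups. Age and sex were not given in the sources used here. Further spleen groups were set beside this response, and also entered the gene filter and the fit that gave its standard errors and p-values. They received DMF at 179.2 mg/kg (8 arrays), DMF at 100 mg/kg together with calcium, magnesium and zinc salts of MEF at 79.2 mg/kg (the combination, 8 arrays) or the MEF salts alone at 79.2 mg/kg (7 arrays). A last group of 8 arrays is labelled Nav, a name the sources used here do not explain. Spleen arrays numbered 47 in all.

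The spleen holds B and T lymphocytes in its white pulp, and macrophages that clear old red cells in its red pulp, where red cell precursors can also form in the mouse. DMF and its product monomethyl fumarate react with cysteine thiols. This is known to free the transcription factor NRF2 from its inhibitor KEAP1, and NRF2 then raises genes of glutathione metabolism and detoxification. Thiol-reactive compounds can also release heat shock factor HSF1, which raises chaperone genes: Hsp70 and Hsp90 fold client proteins, and co-chaperones such as the J-domain proteins feed clients to Hsp70 or set the pace of its cycle.

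Expression was given as log2 values per probe set on an Affymetrix HT MG-430 PM array, and 10549 genes were tested, each through 1 probe set. A fold change is a difference of group means on that scale, DMF minus vehicle, with its standard error from limma. The arrays expressed the genes of a spleen. Cd79a, a B cell receptor subunit, lay between 12.19 and 12.52 in the DMF arrays. Spic, a factor of red pulp macrophages, lay between 10.63 and 11.31 there. Some arrays also carried pancreatic RNA. The mean of 12 pancreas markers lay above 5 in 2 of 8 DMF arrays (replicates 10 and 13) and 3 of 8 vehicle arrays (replicates 3, 6 and 8). It reached 12.1 in the DMF group and 11.7 in the vehicle group, while the lowest arrays had 3.02 and 3.04. Such arrays numbered 15 of the 47 spleen arrays. The mean of 27 erythroid precursor markers ranged from 7.94 to 10.9 in DMF arrays and from 7.59 to 10.6 in vehicle arrays. In whole tissue, fewer cells of a type and less RNA per cell cannot be told apart. Hybridisation controls differed by -0.017 between the groups (exact permutation p = 0.547, two-sided), and the gap between 3' and 5' probe sets of the actin and Gapdh controls, which grows as RNA degrades, by 0.045 (exact permutation p = 0.398). The array median was lower in the DMF arrays, at 5.47 ± 0.04 against 5.50 ± 0.01 in vehicle arrays (SD, n = 8 each; exact permutation p = 0.00653, adjusted p = 0.0196 over the 3 measures).

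**Figure D1:**
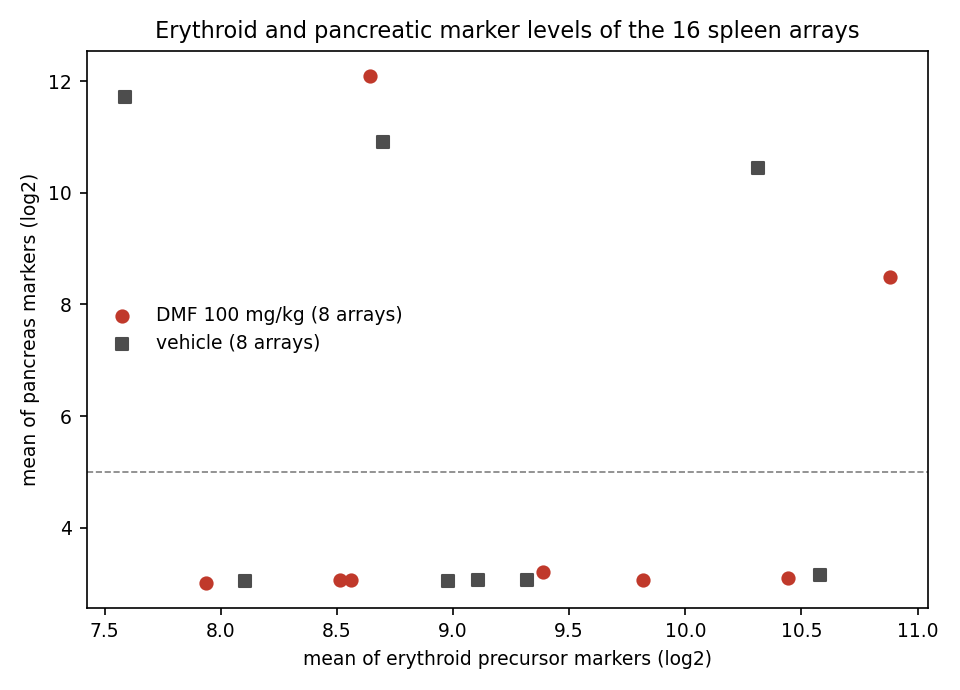
Mean log2 value of 27 erythroid precursor markers (horizontal axis) and of 12 pancreas markers (vertical axis) in the 8 DMF arrays and 8 vehicle arrays of spleen. 2 DMF arrays and 3 vehicle arrays lie above the dashed line at 5, and both groups spread over most of the erythroid range.

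limma with Benjamini-Hochberg adjustment called 88 of the 10549 genes at an adjusted p under 0.05 (0.834%), of which 53 rose (0.502%) and 35 fell (0.332%). Changes of at least 1.5-fold were found for 7 of the called genes (0.0664% of all tested). Of the 88, 15 belong to a gene list used here and 73 to none. Every DMF array lay above every vehicle array for 13 genes (0.123%) and below for 13 genes (0.123%). The median log2 fold change over all genes tested was 0.02, and 57.6% of genes had a positive value. With the 5 arrays that held pancreatic RNA left out of the 16, and such arrays of the other groups too, 43 genes were called, 33 of them among the 88. With all arrays kept and the pancreas marker mean as a covariate, 78 were called, 77 of them among the 88. With each array centred on its median, 78 genes rose and 20 fell. The number called depended on the fit. It was 29 with the DMF and vehicle groups fitted alone and 816 with array weights, of which 633 rose and 183 fell. It was 145 with the erythroid marker mean as a covariate and 153 with every single-symbol probe set tested. Leaving out 1 array gave from 53 calls (without vehicle replicate 5) to 139 (without vehicle replicate 1). No called gene changed its sign under any alternative, and 12 kept their call under all of those that gave them a value. These are Lrrc23, Dnaja1, Ahsa2, Nr5a1, Csrnp2, Dynll1 and Jmjd6, which rose, and Slfn4, Oas1g, Ppp1r3f, Alkbh3 and Ccr6, which fell (Dynll1, Jmjd6 and Ccr6 were chosen after their values were seen).

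Of the gene lists, that of heat shock chaperones and co-chaperones held the most calls. Of 35 heat shock genes tested, 7 rose and none fell, against 0.502% of all tested genes that rose. Like the other lists, this one was written with earlier results of these data known, so the share is no independent test. They were Dnaja1, Dnajb1, Hsph1, Stip1, Ahsa2, Cacybp and Chordc1. The list had a median of 0.08, against 0.02 over all genes, and 28 of its 35 members had a positive value, against 57.6% of all genes. The promoters of 3 of these 7 genes are shown here because they carry the letters of a heat shock element, the sequence that HSF1 is known to bind as repeated GAA units facing in turn. The search used GAANNTTCNNGAA or TTCNNGAANNTTC for an element of 3 units, and GAANNTTC or TTCNNGAA, which the longer form contains, for 2 units. Each motif was sought on both strands of RefSeq windows running from 250 bases before to 50 bases after a start site (assembly GRCm38.p6). The longer form was found in 0.662% of 27025 genes, in 5 of the 32 list genes with a window and in 2 of the 7 list genes that rose, Hsph1 and Chordc1. The shorter form was found in 17% of genes and in 3 of these 7, Dnaja1 being the third, in 1 of its 3 windows. Among all genes that rose and had a window, the shorter form was found in 7 of 47 (14.9%) and the longer in 2 of 47 (4.26%), and among those that fell in 3 of 26 (11.5%) and 0 of 26. Capitals mark the matches. They begin after the start site in Hsph1, 4 bases before it in Chordc1, whose 3 matches overlap, and 124 bases before it in Dnaja1.
Hsph1 (chr5:149636287-149636586, minus strand): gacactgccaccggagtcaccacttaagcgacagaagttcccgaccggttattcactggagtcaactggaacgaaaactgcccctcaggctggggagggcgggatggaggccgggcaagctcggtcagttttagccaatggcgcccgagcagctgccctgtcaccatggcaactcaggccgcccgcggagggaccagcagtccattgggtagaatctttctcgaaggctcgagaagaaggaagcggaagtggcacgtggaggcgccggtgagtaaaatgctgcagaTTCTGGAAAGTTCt
Chordc1 (chr9:18292017-18292316, plus strand): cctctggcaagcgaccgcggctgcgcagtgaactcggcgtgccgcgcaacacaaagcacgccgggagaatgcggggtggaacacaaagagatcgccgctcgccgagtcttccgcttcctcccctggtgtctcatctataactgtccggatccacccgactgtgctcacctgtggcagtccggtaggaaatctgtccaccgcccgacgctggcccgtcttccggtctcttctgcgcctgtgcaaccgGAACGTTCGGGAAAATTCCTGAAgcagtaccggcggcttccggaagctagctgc
Dnaja1 (chr4:40722218-40722517, plus strand): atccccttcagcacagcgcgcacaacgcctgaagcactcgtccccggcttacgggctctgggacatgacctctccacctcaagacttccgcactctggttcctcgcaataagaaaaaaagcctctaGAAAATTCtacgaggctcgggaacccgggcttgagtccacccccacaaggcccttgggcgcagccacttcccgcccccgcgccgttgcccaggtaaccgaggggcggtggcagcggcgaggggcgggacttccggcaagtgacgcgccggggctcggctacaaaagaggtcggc

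Of the J-domain proteins on the list, which hand clients to Hsp70, Dnaja1 and Dnajb1 rose. The others tested did not pass the test, with values of 0.03 for Dnaja2, 0.13 for Dnajb4 and -0.02 for Dnajb6 (limma adjusted p = 0.746, 0.778 and 0.792). Dnaja1 had values of 11.04, 11.43 and 11.56 in DMF arrays (lowest, median and highest), against 10.55, 10.73 and 11.002 in vehicle arrays. All 8 DMF arrays lay above the highest vehicle array. The gene rose by 0.64 ± 0.09 (limma adjusted p = 1.9e-05), or 1.56-fold, and its other probe set gave 0.52. Dnajb1 had 10.61, 11.29 and 11.50 in DMF arrays, against 10.66, 10.79 and 11.03 in vehicle arrays. Here 6 DMF arrays lay above the vehicle range, while replicate 12, the array with the lowest median, lay below it. The rise was 0.42 ± 0.10 (limma adjusted p = 0.0148), and the other probe set gave 0.57.

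Of the genes whose proteins work with Hsp90, some rose and others did not pass the test. Ahsa2, a relative of the Hsp90 activator Aha1, had 9.77, 10.07 and 10.26 in DMF arrays, against 9.22, 9.43 and 9.98 in vehicle arrays. Vehicle replicate 1 alone reached into the DMF range, and 6 DMF arrays lay above it. The rise was 0.61 ± 0.10 (limma adjusted p = 0.00072). Stip1, the adaptor that links Hsp70 to Hsp90, had 9.30, 9.61 and 9.88 in DMF arrays, against 8.94, 9.16 and 9.39 in vehicle arrays. It rose by 0.43 ± 0.10 (limma adjusted p = 0.0121), with 6 DMF arrays above the vehicle range. Cacybp, the calcyclin-binding protein, rose by 0.35 ± 0.07 (limma adjusted p = 0.00778), with 7 of 8 DMF arrays above the vehicle range. Chordc1, an Hsp90 co-chaperone outside the naming rule and chosen after its value was seen, rose by 0.28 ± 0.07 (limma adjusted p = 0.0247). That call ended without DMF replicate 9 or 11, or vehicle replicate 5 or 7. Aha1 itself (Ahsa1) differed by 0.20 ± 0.07 (limma adjusted p = 0.18), the kinase-loading co-chaperone Cdc37 by 0.04 ± 0.09 (limma adjusted p = 0.902) and the p23 gene Ptges3 by 0.10 ± 0.04 (limma adjusted p = 0.298).

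The large chaperones were less uniform. Hsph1, the Hsp110 that exchanges nucleotides on Hsp70, had 12.27, 12.72 and 12.95 in DMF arrays, against 12.01, 12.16 and 12.73 in vehicle arrays. The groups overlapped, with 4 DMF arrays above the vehicle range, and the gene rose by 0.43 ± 0.10 (limma adjusted p = 0.0121). Hspa1b, a stress-inducible Hsp70, had 8.47, 9.03 and 9.29 in DMF arrays, against 7.37, 7.99 and 9.10 in vehicle arrays. Its difference of 0.80 ± 0.24 did not pass the test (limma adjusted p = 0.0939), and vehicle replicates 1, 2 and 4 lay within the DMF range. Without vehicle replicate 4 alone the gene was called, at 0.93 (limma adjusted p = 0.0458). Hspa8, the constitutive Hsp70, differed by 0.10 ± 0.04 (limma adjusted p = 0.255) on the probe set used. Its 3 other probe sets gave 0.15 to 0.81, and their mean with the first was called, at 0.31 (limma adjusted p = 0.0094). The stress-inducible Hsp90aa1 differed by -0.01 ± 0.12 (limma adjusted p = 0.99). Without the arrays that held pancreatic RNA, 2 of the list's 35 genes were called, Dnaja1 at 0.65 (limma adjusted p = 0.0056) and Ahsa2 at 0.62 (limma adjusted p = 0.0142). The other 5 genes that had risen then had values from 0.30 for Chordc1 to 0.43 for Stip1, with limma adjusted p from 0.0679 (Cacybp) to 0.204 (Hsph1), at 6 DMF arrays and 5 vehicle arrays. With all arrays kept and the pancreas marker mean as a covariate, these 5, Dnaja1 and Ahsa2 all kept their calls.

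**Figure D2:**
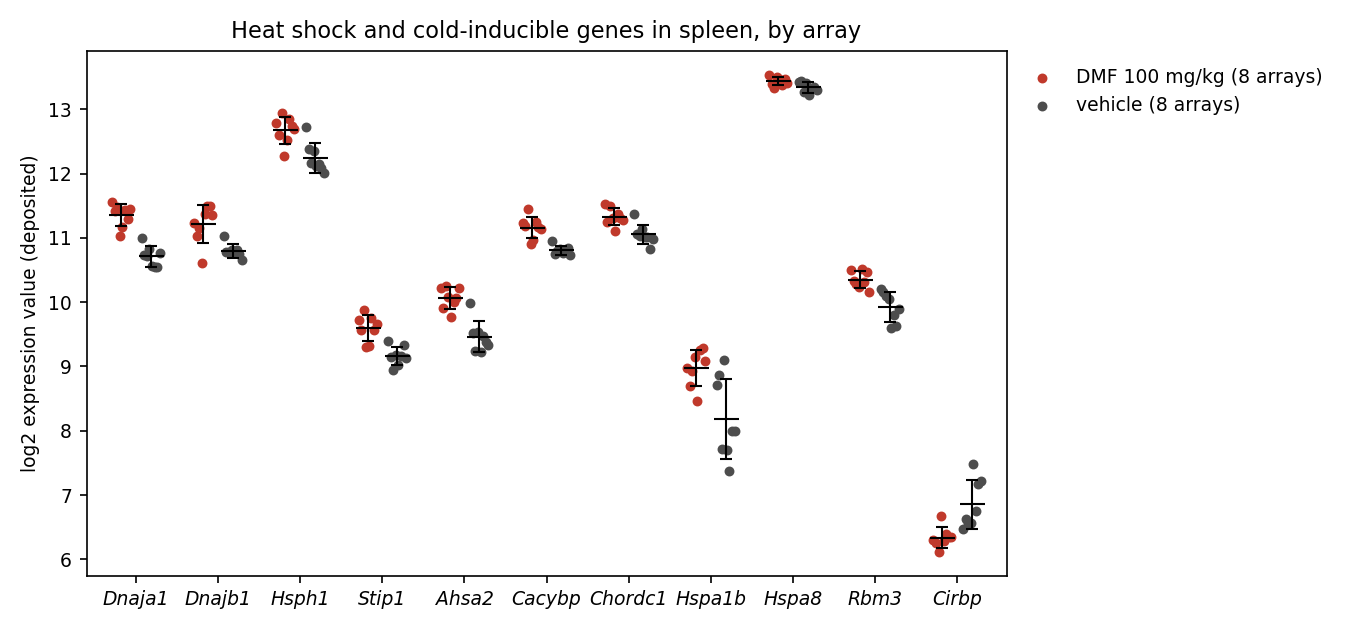
Deposited log2 values of 9 heat shock genes and 2 cold-inducible genes in the 8 DMF arrays (left of each pair) and the 8 vehicle arrays (right), with group means and SD as bars. Dnaja1 separates the groups fully, Hspa1b spreads widely among the vehicle arrays, and Rbm3 and Cirbp lie on opposite sides.

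The pair of cold-inducible RNA-binding proteins moved in opposite directions. Rbm3 had 10.15, 10.32 and 10.52 in DMF arrays, against 9.60, 9.97 and 10.20 in vehicle arrays, and 7 DMF arrays lay above the vehicle range. It rose by 0.43 ± 0.08 (limma adjusted p = 0.00531). Cirbp had 6.12, 6.32 and 6.68 in DMF arrays, against 6.47, 6.69 and 7.48 in vehicle arrays, and 7 DMF arrays lay below the vehicle range. It fell by 0.52 ± 0.13 (limma adjusted p = 0.0413). The vehicle arrays were uneven for both genes. Replicates 5 to 8 had the 4 highest Cirbp values of that group, from 6.75 to 7.48, and its 4 lowest Rbm3 values, from 9.60 to 9.89. Neither call held without the arrays that carried pancreatic RNA, where Rbm3 had 0.40 (limma adjusted p = 0.121) and Cirbp -0.50 (limma adjusted p = 0.159). The call of Cirbp also ended when any of DMF replicates 9, 10, 11, 13 and 16 or vehicle replicates 5, 7 and 8 was left out.

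Stress and clock genes added single calls. Over all genes 0.834% were called and 12.7% had an unadjusted p under 0.05. Ddit3, the transcription factor CHOP that is induced by endoplasmic reticulum stress, had 8.81, 8.92 and 9.03 in DMF arrays, against 8.58, 8.71 and 8.87 in vehicle arrays. It rose by 0.20 ± 0.05 (limma adjusted p = 0.0351) and was the only call among 17 targets of ATF4. Its call ended when any of 7 arrays was left out in turn, DMF replicates 9, 11 and 16 and vehicle replicates 2 to 5. It also ended without the arrays that held pancreatic RNA (limma adjusted p = 0.0679) and with the DMF and vehicle groups fitted alone (limma adjusted p = 0.0825). Of 19 chaperones and regulators of the endoplasmic reticulum, limma called 0, and 0 had an unadjusted p under 0.05. Cry1, a repressor of the circadian clock, had 9.31, 9.50 and 9.76 in DMF arrays, against 8.96, 9.18 and 9.50 in vehicle arrays. It rose by 0.33 ± 0.08 (limma adjusted p = 0.0351), alone among 17 clock genes, and the call ended without any of DMF replicates 9 to 12 or vehicle replicates 2, 3, 4, 5, 7 and 8. Cry1 was not called either without the arrays that held pancreatic RNA (limma adjusted p = 0.13), with the groups fitted alone (limma adjusted p = 0.0836) or with no filter on low values.

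Among targets of NRF2, limma called Gstm1 alone, a glutathione transferase that couples electrophiles to glutathione. Gstm1 had 9.76, 10.33 and 10.47 in DMF arrays, against 9.30, 9.73 and 9.98 in vehicle arrays, and 7 DMF arrays lay above the vehicle range. It rose by 0.56 ± 0.10 (limma adjusted p = 0.0022), and by 0.69 (limma adjusted p = 0.0019) without the arrays that held pancreatic RNA. With the groups fitted alone the adjusted p was 0.0608. Probe sets of this kind can also bind transcripts of sister genes, so part of the signal may come from other mu class transferases. Of the 35 NRF2 targets tested 1 rose and none fell, against 0.502% and 0.332% of all genes. The list's median was 0.06 against 0.02 over all genes. Of its 35 members 27 had a positive value, against 57.6% of all genes, and 8 had an unadjusted p under 0.05, against 12.7%.

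Other NRF2 targets that are often measured did not pass the test. Nqo1, a quinone reductase, had 7.69, 8.40 and 10.36 in DMF arrays, against 7.42, 7.92 and 9.48 in vehicle arrays, and differed by 0.68 ± 0.31 (limma adjusted p = 0.35). The highest values, in DMF replicates 13 and 16 and vehicle replicate 7, came from the arrays with the highest erythroid marker means of their groups. With that mean as a covariate, Nqo1 was called at 0.55 (limma adjusted p = 0.0098). Srxn1, which repairs oxidised peroxiredoxins, differed by 0.19 ± 0.11 (limma adjusted p = 0.478). The subunits of glutamate cysteine ligase, the enzyme that limits glutathione synthesis, differed by -0.01 ± 0.16 (Gclc) and -0.03 ± 0.34 (Gclm). Hmox1, heme oxygenase, differed by -0.30 ± 0.13 (limma adjusted p = 0.294). Outside the NRF2 list, the zinc-binding metallothionein Mt1 differed by 0.10 ± 0.17 (limma adjusted p = 0.872). Of 10 genes that regulate NRF2 or handle fumarate, limma called 0 and 0 had an unadjusted p under 0.05, against 0.834% and 12.7% of all genes.

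Genes that interferon is known to induce lay on the low side. Of 39 tested, 36 had a negative value, against 42.4% of all genes, with a median of -0.15 against 0.02. Ifit3 was the only member called, and 17 of the 39 had an unadjusted p under 0.05, against 12.7% of all genes. The promoters of Ifit3 and Oas1g, an interferon-induced gene outside the list, are shown because both carry the letters of an interferon-stimulated response element, written here as GAAANNGAAA or TTTCNNTTTC. That motif was found in 3.99% of all genes on either strand, and in 18 of the 31 list genes with a window. Among called genes with a window, it was found in 2 of 26 that fell (7.69%), which are these 2, and in 1 of 47 that rose (2.13%). Capitals mark 2 matches in each promoter, overlapping in Oas1g. The first match begins 156 bases before the start site in Ifit3 and 18 bases before it in Oas1g.
Ifit3 (chr19:34583279-34583578, plus strand): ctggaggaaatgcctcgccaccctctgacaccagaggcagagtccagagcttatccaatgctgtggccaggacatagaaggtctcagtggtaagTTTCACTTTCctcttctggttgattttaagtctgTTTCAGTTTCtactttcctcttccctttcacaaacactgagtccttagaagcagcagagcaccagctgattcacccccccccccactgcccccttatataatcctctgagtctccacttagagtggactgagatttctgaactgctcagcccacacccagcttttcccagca
Oas1g (chr5:120887564-120887863, minus strand): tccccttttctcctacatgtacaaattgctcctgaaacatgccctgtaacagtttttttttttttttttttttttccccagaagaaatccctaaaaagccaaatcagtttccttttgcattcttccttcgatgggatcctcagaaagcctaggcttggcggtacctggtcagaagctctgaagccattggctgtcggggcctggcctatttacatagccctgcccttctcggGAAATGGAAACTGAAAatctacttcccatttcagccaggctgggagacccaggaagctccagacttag

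Slfn4, a schlafen family member of myeloid cells, showed the largest change of all called genes. Slfn4 had 6.93, 7.67 and 8.34 in DMF arrays, against 8.62, 8.99 and 10.02 in vehicle arrays, so that every DMF array lay below every vehicle array. It fell by 1.52 ± 0.34 (limma adjusted p = 0.0116), to 0.348 times the vehicle level. Of the other 5 schlafen genes tested limma called 0, and their values ran from -0.21 to 0.20. Of these 5, 1 had an unadjusted p under 0.05, against 12.7% of all genes. Oas1g, an oligoadenylate synthetase of the antiviral response, had 8.43, 8.53 and 8.79 in DMF arrays, against 8.82, 9.06 and 9.24 in vehicle arrays. Its groups did not overlap either, and it fell by 0.48 ± 0.10 (limma adjusted p = 0.0115). Oas1g lies among closely similar Oas1 genes, whose transcripts the probe set may share. Ifit3, an antiviral RNA-binding protein, had 9.39, 9.56 and 10.17 in DMF arrays, against 9.88, 10.24 and 10.46 in vehicle arrays. With 7 DMF arrays below the vehicle range, Ifit3 fell by 0.61 ± 0.16 (limma adjusted p = 0.0427). Its call ended when any array other than DMF replicate 10 or vehicle replicate 1 was left out, and without the arrays that held pancreatic RNA it had -0.67 (limma adjusted p = 0.112). The mean of 14 tested neutrophil markers, another myeloid list, ran from 7.03 to 8.10 in DMF arrays and from 7.42 to 9.67 in vehicle arrays. Its part in the fall of Slfn4 was not tested.

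Single genes for receptors of immune cells also fell, while most marker lists of immune cells held no called gene. Tlr7, the endosomal receptor for single-stranded RNA, had 7.94, 8.38 and 8.62 in DMF arrays, against 8.51, 8.82 and 9.14 in vehicle arrays. The ranges overlapped, 5 DMF arrays lay below the vehicle range, and Tlr7 fell by 0.45 ± 0.09 (limma adjusted p = 0.00594). Its 2 other probe sets gave -0.40 and -0.40. Klrg1, an inhibitory receptor of natural killer and effector T cells, fell by 0.46 ± 0.12 (limma adjusted p = 0.0367). It was the only call among 11 natural killer and cytotoxic markers, where 0.834% of all genes were called. That call ended in 8 of the 16 fits that left out an array, and without the arrays that held pancreatic RNA (-0.36, limma adjusted p = 0.258). Ccr6 and Cd1d1, chosen after their values were seen, also fell. Ccr6, a chemokine receptor of B cells and some T cells, had 9.12, 9.31 and 9.60 in DMF arrays, against 9.63, 9.75 and 10.14 in vehicle arrays. Its groups did not overlap, and it fell by 0.41 ± 0.08 (limma adjusted p = 0.00355). Cd1d1, which presents lipids to natural killer T cells, fell by 0.29 ± 0.07 (limma adjusted p = 0.0301). Its call was lost in 10 of 30 alternatives, of which 6 left out 1 array. The others were centring, the mean of its probe sets, the groups fitted alone (limma adjusted p = 0.168) and the fit without the arrays that held pancreatic RNA (limma adjusted p = 0.0824).

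**Figure D3:**
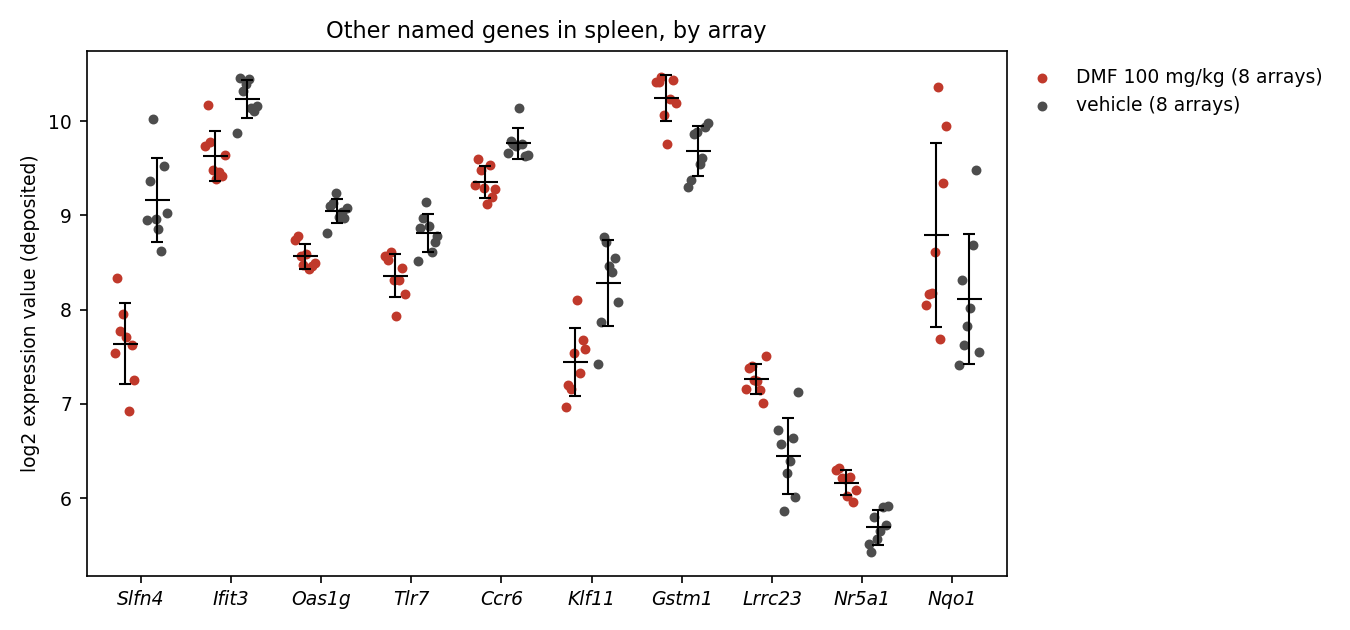
Deposited log2 values of 10 further genes in the 8 DMF arrays (left of each pair) and the 8 vehicle arrays (right), with group means and SD as bars. The groups do not overlap for Slfn4, Oas1g, Ccr6 and Nr5a1, while Nqo1 spreads over more than 2 log2 units in both.

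Of the other genes with the largest increases, Lrrc23, a leucine-rich repeat protein of cilia and flagella, led by size. Lrrc23 had 7.01, 7.25 and 7.51 in DMF arrays, against 5.86, 6.48 and 7.12 in vehicle arrays. Its vehicle values were the more spread, 7 DMF arrays lay above all of them, and it rose by 0.81 ± 0.14 (limma adjusted p = 0.00154), or 1.76-fold. Nr5a1, the nuclear receptor SF-1 that is also made by vessels of the spleen, had 5.96, 6.21 and 6.32 in DMF arrays, against 5.43, 5.69 and 5.92 in vehicle arrays. No array of either group lay in the range of the other, and Nr5a1 rose by 0.48 ± 0.11 (limma adjusted p = 0.0127). Tob1, an antiproliferative adaptor that recruits deadenylases, rose by 0.51 ± 0.12 (limma adjusted p = 0.0225) with no overlap between groups. It lost its call without DMF replicate 9, vehicle replicate 5 or vehicle replicate 6. Fastkd5, which processes mitochondrial transcripts, rose by 0.49 ± 0.11 (limma adjusted p = 0.0163), also with no overlap, a call that ended without DMF replicate 11. Pank1, a kinase that starts coenzyme A synthesis, had 7.06, 7.25 and 7.46 in DMF arrays, against 6.06, 6.87 and 7.05 in vehicle arrays, with no overlap. It rose by 0.49 ± 0.11 (limma adjusted p = 0.0121), while its other probe set gave 0.15, and the call ended without vehicle replicate 5, the lowest array. Csrnp2, a nuclear protein, rose by 0.43 ± 0.09 (limma adjusted p = 0.00778). Syne3, which anchors the nuclear envelope, rose by 0.43 ± 0.11 (limma adjusted p = 0.0396), and that call ended in 9 of the 16 fits that left out an array. The 2 other probe sets of Vps37a, a subunit of a membrane-sorting complex, pointed the other way, at -0.19 and -0.05, against a rise of 0.42 ± 0.08 (limma adjusted p = 0.00468) on the probe set used. Without the arrays that held pancreatic RNA, the calls of Tob1 (0.51, limma adjusted p = 0.144), Fastkd5 (0.57, limma adjusted p = 0.0679) and Syne3 (0.36, limma adjusted p = 0.235) also ended.

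Among the other genes with the largest decreases, Klf11, a transcriptional repressor induced by TGF-beta, had 6.97, 7.43 and 8.11 in DMF arrays, against 7.42, 8.43 and 8.77 in vehicle arrays. The groups overlapped, 4 DMF arrays lay below the vehicle range, and Klf11 fell by 0.84 ± 0.18 (limma adjusted p = 0.00893). Alkbh3, a demethylase that repairs alkylated nucleic acids, had 7.85, 8.05 and 8.37 in DMF arrays, against 8.38, 8.48 and 8.67 in vehicle arrays. It separated the groups fully and fell by 0.42 ± 0.07 (limma adjusted p = 0.00141). Ppp1r3f, a subunit that directs a phosphatase to glycogen, fell by 0.46 ± 0.09 (limma adjusted p = 0.00594), with 7 of 8 DMF arrays below the vehicle range. Mllt3, a chromatin reader of transcription elongation complexes, fell by 0.42 ± 0.09 (limma adjusted p = 0.0121), while its other probe set gave -0.10. Rab30, a GTPase of the Golgi, and Vwa1, a matrix protein, each fell by 0.48 ± 0.10 (limma adjusted p = 0.00651 and 0.00893). Proser2 fell by 0.53 ± 0.10 (limma adjusted p = 0.0022). The genes 0610040B10Rik and Gm9776, whose roles are not given here, fell by 0.72 ± 0.15 (limma adjusted p = 0.00778) and 0.47 ± 0.11 (limma adjusted p = 0.0148). Without the arrays that held pancreatic RNA, Klf11 had -0.83 (limma adjusted p = 0.0824), Tlr7 -0.42 (limma adjusted p = 0.0983), Mllt3 -0.45 (limma adjusted p = 0.0631), 0610040B10Rik -0.67 (limma adjusted p = 0.134) and Gm9776 -0.45 (limma adjusted p = 0.184), so that none of these was called.

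Most marker lists of spleen cell types held no called gene. Over all genes 0.834% were called and 12.7% had an unadjusted p under 0.05, while 57.6% had a positive value and 42.4% a negative one. limma called 0 of 27 erythroid precursor markers, whose median was 0.17, and 0 of them had an unadjusted p under 0.05. Klf1, the erythroid master regulator, had 5.78, 7.84 and 10.09 in DMF arrays, against 5.48, 7.35 and 9.45 in vehicle arrays, and differed by 0.55 ± 0.66. Kel, a red cell antigen, differed by 0.61 ± 0.90. Without the arrays that held pancreatic RNA, the erythroid median was -0.08 and 8 of the 27 values were positive, against 24 with all arrays. Of 17 T cell markers limma called 0, 3 had an unadjusted p under 0.05 and 16 had a positive value, with a median of 0.13. Of 15 B cell markers limma called 0 and 1 had an unadjusted p under 0.05, with a median of -0.02. Among 14 neutrophil and granulocyte precursor markers limma called 0, 1 had an unadjusted p under 0.05 and 13 were negative, with a median of -0.52. The highest vehicle array on that list, replicate 7, was also the highest in erythroid and adipocyte markers. All 10 megakaryocyte and platelet markers were negative, with a median of -0.10, and limma called 0 with 0 at an unadjusted p under 0.05. No macrophage, dendritic, plasma cell, mast cell or stromal marker was called, and the unadjusted counts were 0 of 23, 1 of 9, 0 of 6, 0 of 3 and 2 of 14. Of 33 cell cycle genes limma called 0, and 0 had an unadjusted p under 0.05. Of the 33 values 19 were positive, with a median of 0.03. Without the arrays that held pancreatic RNA 5 were positive, with a median of -0.16. Pancreas markers had a median of -1.17 with 0 of 12 called and 0 at an unadjusted p under 0.05, and limma called 0 of 5 adipocyte markers, 0 of them at an unadjusted p under 0.05, with a median of -0.62.

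**Figure D4:**
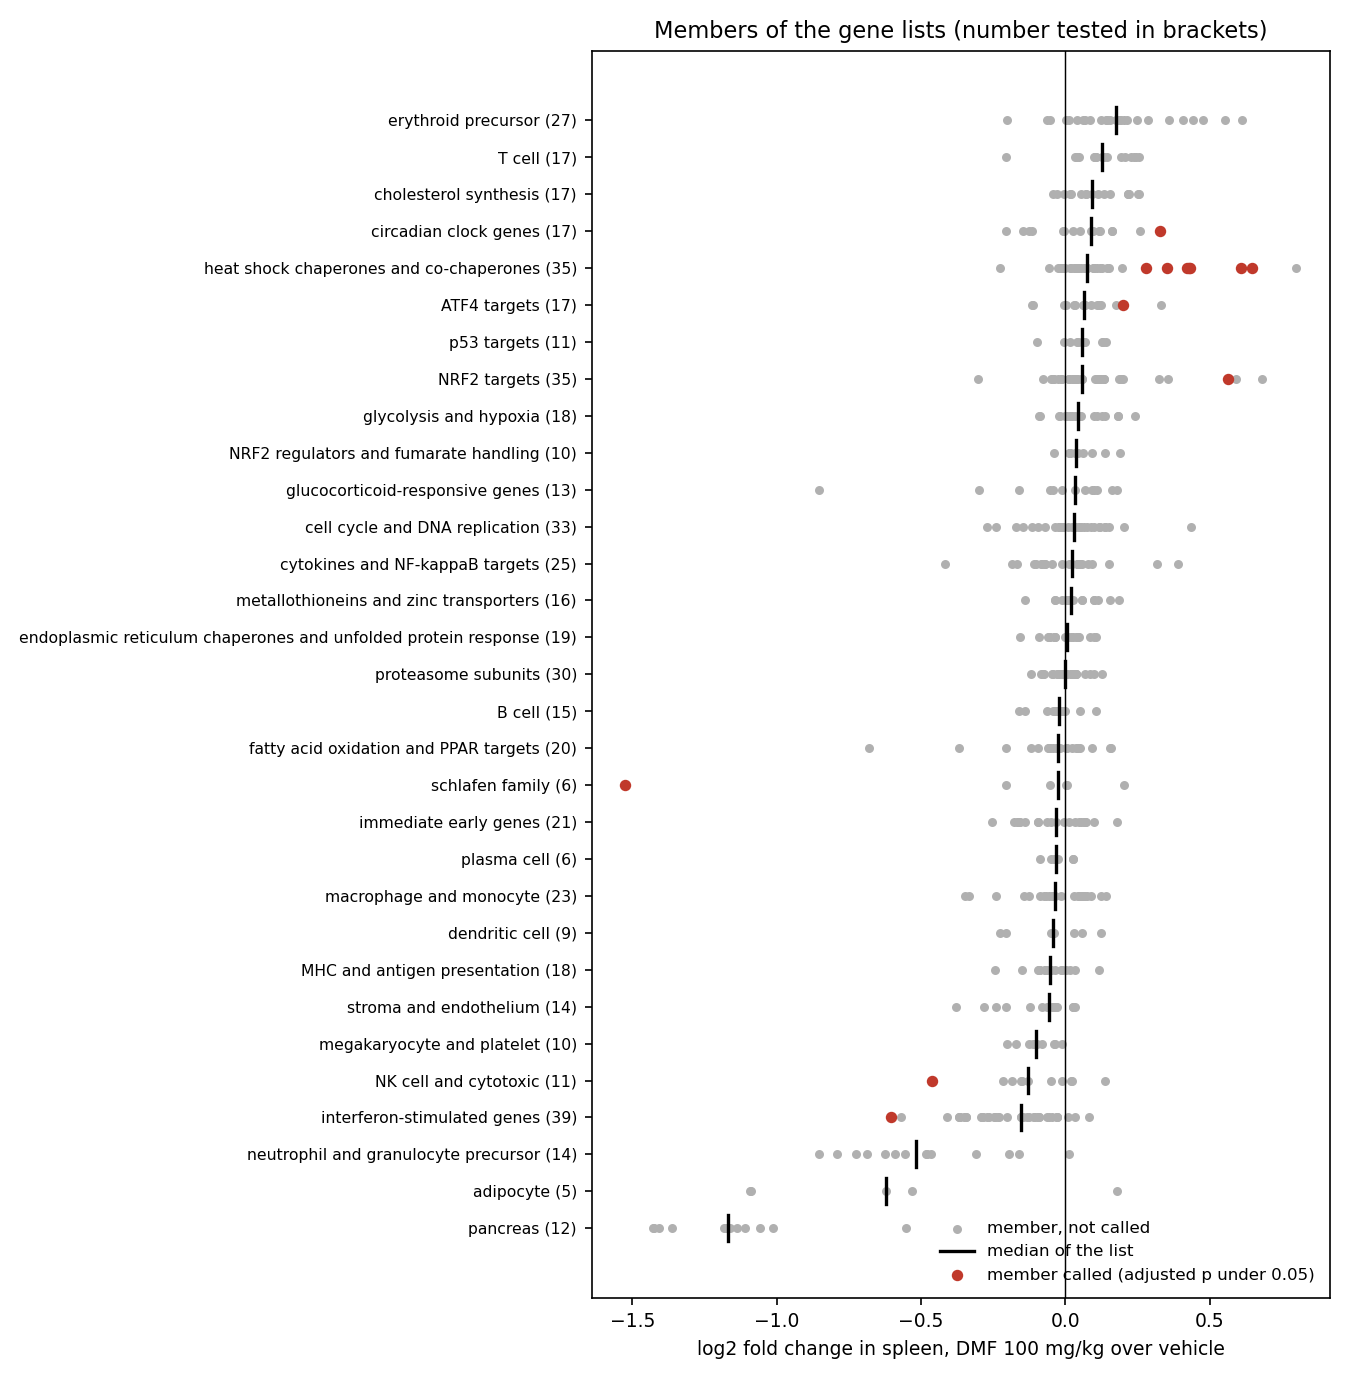
Log2 fold change, DMF over vehicle, of each tested member (points) of the gene lists with at least 5 members, with the list median as a black bar and called members in red. Red points gather in the heat shock list, and the neutrophil, adipocyte and pancreas medians lie farthest below 0 with no called member.

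Set beside the other treatments in the fit of all spleen arrays, Dnaja1, Klf11 and Mllt3 lay farther from vehicle at the lower dose of DMF. These genes were themselves among those called at that dose. These values all come from the same fit, and the comparisons with vehicle share the vehicle arrays. The direct differences from the other treatments use the same 8 DMF arrays on which the 88 genes were called, which favours a difference in the direction of the call, so that no share of the 88 is given for them. Dnaja1 had 0.64 ± 0.09 for DMF at 100 mg/kg, 0.35 ± 0.09 at 179.2 mg/kg and 0.26 ± 0.09 for the combination, each against vehicle. The direct difference between the doses of DMF was 0.30 ± 0.09 (limma adjusted p = 0.0477). Gstm1 had 0.56, 0.69 and 0.64 for these treatments, and -0.04 for the group labelled Nav. Slfn4 had -1.52, -1.22 (limma adjusted p = 0.0091) and -1.48 (limma adjusted p = 0.15), -1.26 for MEF salts alone (limma adjusted p = 0.89) and -0.40 for Nav (limma adjusted p = 0.43). Klf11 had -0.84 at 100 mg/kg and -0.14 at 179.2 mg/kg, a direct difference of -0.70 ± 0.18 (limma adjusted p = 0.0363). Mllt3 had -0.42 at 100 mg/kg and 0.06 at 179.2 mg/kg, a direct difference of -0.48 ± 0.09 (limma adjusted p = 0.0202). Of the 35 heat shock genes tested, Dnaja1 alone was called higher at 100 mg/kg than at 179.2 mg/kg (0.796% of all genes). Against vehicle, 14 of the 35 rose at 179.2 mg/kg, where 16.9% of all genes rose, with a list median of 0.13. At 100 mg/kg 7 of them rose, where 0.502% of all genes did, with a median of 0.08. Over all genes 270 differed between the doses (2.56%), 84 higher and 186 lower at 100 mg/kg. The lower ones were led by Tlcd4 at -2.15 ± 0.60, Abcg4, Sec14l2, and the cell division genes Aspm at -1.23 ± 0.36 and Cdca5 at -1.12 ± 0.27. Vgll4 at 0.53 ± 0.12, Lrrc41, Gadd45b, S1pr1 and Gm38604 led the higher ones. Erythroid marker means ran from 7.94 to 10.9 at 100 mg/kg and from 9.98 to 11.04 at 179.2 mg/kg, and their part in these differences was not tested. With the 2 doses fitted alone, 1 gene was called, and it was lower at 100 mg/kg. Dnaja1 was thus not called in that fit, and at most 1 of Klf11 and Mllt3 was.

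The combination added MEF salts to the same dose of DMF. Between DMF at 100 mg/kg and the combination limma called 0 of 10549 genes, and 739 had an unadjusted p under 0.05 (7.01%). Dnaja1 was higher with DMF alone by 0.38 ± 0.09 (limma adjusted p = 0.0853). The difference was -0.08 ± 0.10 for Gstm1 (limma adjusted p = 0.981) and -0.04 ± 0.34 for Slfn4 (limma adjusted p = 0.999). Array weights called 23 genes and centring on the array median called 5. The combination included 4 of 8 arrays with pancreatic RNA, against 2 of 8 for DMF alone.

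The mesenteric lymph node of the same study, 8 arrays for DMF at 100 mg/kg and 8 for vehicle, was set beside the spleen. The arrays of the 2 tissues carry the same replicate numbers and may come from the same mice, so the node values are not known to be those of separate animals. There limma called 197 of 10671 genes (1.85%). Of the 88 genes called in spleen, 84 were tested in the node, where 82 had the same sign and 36 were called, with 0 called in the opposite direction. The share of same signs over all genes tested in both tissues is not given here, so the 82 has no background. They are also 36 of the 197 genes called in the node, and heat shock genes were among them. Dnaja1 rose by 0.68 in the node, Ahsa2 by 0.65, Dnajb1 by 0.54, Stip1 by 0.49, Cacybp by 0.46, Hsph1 by 0.43 and Chordc1 by 0.38. Hspa1b, not called in spleen, rose by 1.39 there (limma adjusted p = 0.00102), and Nqo1 by 1.22 (limma adjusted p = 2.6e-08). Hmox1 rose by 0.32 in the node (limma adjusted p = 0.0341), against -0.30 in spleen. Srxn1, Gclc and Gclm were not called in either tissue. Rbm3 rose by 0.48 and Cirbp fell by 0.45 in the node, Gstm1 rose by 0.52, Cry1 rose by 0.37 and Klf11 fell by 0.46. Ifit3 had -0.51 (limma adjusted p = 0.26) and Oas1g -0.22 (limma adjusted p = 0.371) in the node, where Slfn4 was not tested.

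The test of the difference between the tissues called no gene. Over 10121 genes tested in both, limma called 0, and 179 had an unadjusted p under 0.05 (1.77%). Among the genes called in spleen and tested in both, Vwa1 was the farthest apart, at -0.48 ± 0.10 in spleen and 0.17 ± 0.14 in the node. Its difference was -0.66 ± 0.18 (limma adjusted p = 0.99996). Lrrc23 had 0.81 ± 0.14 in spleen and 0.34 ± 0.11 in the node, a difference of 0.47 ± 0.18. Oas1g differed between the tissues by -0.25 ± 0.12, Syne3 by 0.30 ± 0.13 and Id1, chosen after its values were seen, by -0.42 ± 0.17. Hmox1, not called in spleen, differed by -0.63 ± 0.17. The tissues appear to have been normalized apart, so their levels were not compared.

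**Figure D5:**
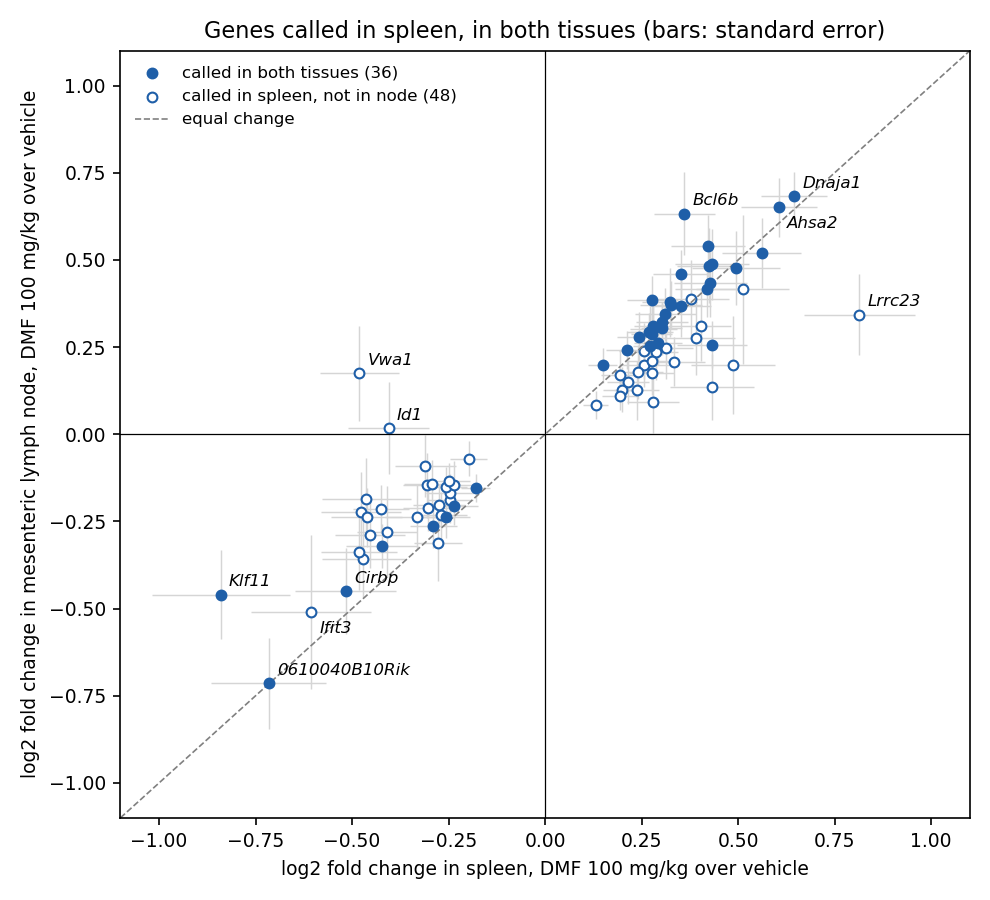
Log2 fold change, DMF at 100 mg/kg over vehicle, in spleen (horizontal axis) and mesenteric lymph node (vertical axis) of the 84 genes called in spleen and tested in both, with standard errors as bars. Filled points are the 36 called in the node too, the dashed line marks equal change, and Vwa1 and Id1 are the 2 genes of opposite sign.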

How the data were processed

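Expression was measured in mouse tissues on Affymetrix HT MG-430 PM arrays, and groups were taken from the sample titles. The deposited table holds log2 values of 45141 probe sets. The submitters' processing notes name limma 3.4.5, R 2.11.1, GCRMA and RMA as the authors' tools, with no role for each. Between 18.0 and 20.6% of a spleen array's values sat at the shared lowest value, so low levels are compressed, and the number of arrays limits the precision. Genes were named through 28898 probe sets with 1 symbol in the platform annotation (551 had several and 15692 none), of which 28689 matched RefSeq, assembly GRCm38.p6. Each of 17097 genes was represented by its probe set of highest mean in the whole series. A gene was tested when above the 50th percentile of spleen values (log2 5.48) in at least 5 spleen arrays.

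limma 3.58.1 in R 4.3.3 was fitted to 47 spleen arrays with 1 mean per group, with calls made below 0.05 after Benjamini-Hochberg adjustment. The tissue comparison used an interaction term over spleen and node arrays. Technical measures were compared by exact permutation over 16 arrays. The labels do not tie each array to a separate mouse, so p-values measure the spread between arrays. Correlations between pairs of the 16 arrays ran from 0.951 to 0.996. Named genes are the 15 that rose and 15 that fell most, up to 6 called members of a list, 5 each way in a direct comparison, and a fixed set. The members and the 34 gene lists were chosen with earlier results of these data known. The other lists, of cholesterol synthesis, proteasome, immediate early, glucocorticoid, metallothionein, cytokine, antigen presentation, p53, fatty acid oxidation and glycolysis genes, held 0 calls by limma, with 0 to 4 members each at an unadjusted p under 0.05, and their medians ran from -0.05 to 0.09. Of all genes, 12.7% had an unadjusted p under 0.05. The test was tried on simulated data first. After seeing the data, 2 alternatives were added: leaving out arrays with pancreatic RNA, and fitting the pancreas marker mean.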

Additional observations from a re-analysis of the deposited data

Results flagged for a closer look

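Among 114 group tests, 4 found an array far from the rest of its group, and chance gives about 1 in 20. Vehicle replicate 1 had 9.98 for Ahsa2, while the other vehicle arrays had 9.22 to 9.54, and 11.03 for Dnajb1, while the others had 10.66 to 10.81. Vehicle replicate 5 had 6.06 for Pank1, while the others had 6.68 to 7.05. The array median of DMF replicate 12 was 5.379, while the other DMF arrays had 5.463 to 5.510.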

How the results depend on the processing

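All 88 called genes kept their sign under every alternative, and the number called stayed within 1.5 times of 88 without a filter (68), with a stricter one at the 70th percentile (76), after quantile normalization (114) or centring (98), with a trended variance (93), with probe sets averaged per gene (116), and with hybridisation controls (109) or pancreas markers (78) as a covariate. It moved to 816 with array weights, 29 with the 2 groups fitted alone, 145 with the erythroid marker mean as a covariate, 153 with every single-symbol probe set tested and 43 without the arrays that held pancreatic RNA. Leaving out each array in turn gave 53 (without vehicle replicate 5) to 139 (without vehicle replicate 1), and 49 genes were called in all these fits. With the groups fitted alone 62 of the 88 genes lost their calls, among them Gstm1, Pank1, Hsph1, Dnajb1, Chordc1, Rbm3, Cirbp, Klf11, Tlr7, Klrg1, Mllt3, Syne3, Vps37a, Proser2, Rab30, Vwa1 and Gm9776, and 55 did without the arrays that held pancreatic RNA. Cirbp and Klrg1 lost theirs after renewed quantile normalization and centring too, and Ifit3 after centring. The causes were not tested. Between the doses of DMF, 270 calls became 108 with no filter, 131 with centring, 2191 with array weights and 1 with the groups alone. Between DMF at 100 mg/kg and the combination, 0 calls became 5 with centring and 23 with array weights. Between spleen and node responses, 0 calls became 1 with no filter.

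No paired analysis was possible because the DMF and vehicle arrays share no replicate number. Between tissues, the fit with a replicate block also called 0. Of 16 same-numbered array pairs 11 correlated above 0.1 (median 0.233, range -0.183 to 0.833), which leaves undecided whether they come from the same mice, and the block was not used because not every pair did. It lowered the standard error of the tissue difference to 0.057 for Hsph1, against 0.162 without it, and to 0.156 for Hspa1b, against 0.389.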
